A study of Mus musculus with 24 samples.

Results

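The sites described here are 1 kb bins of the mouse genome that carried H3K4me1 in the small cell lung cancer line 236L and in none of the 3 other lines profiled. A bin was taken as marked where merged peaks covered at least 50% of it, and bins were laid from the start of chromosomes 1 to 19. By this rule 69691 of 2460688 bins were found in 236L only, which is 61.7% of the 112904 H3K4me1 bins of that line. The H3K4me1 lists themselves chose these bins, so the H3K4me1 values below are descriptions without a test. H3K4me2, H3K27me3 and the KDM6A protein were mapped separately and were not used in the choice. H3K4me2 tends to lie with H3K4me1, however, so its values at these bins are not independent of the choice.

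The series holds ChIP-seq peak lists from 4 mouse small cell lung cancer lines at early passage. All 4 grew out of RPP tumours, a model that targets the tumour suppressors Rb1, Trp53 and Rbl2. Lines 159-1 and 1014 are sgControl RPP (Kdm6a wild type), from tumours with a control guide RNA. Lines 236L and 236R are sgKdm6a RPP (Kdm6a mutant): their tumours carried a guide RNA directed at Kdm6a, the X-linked gene of an H3K27 demethylase. Cells were plated in suspension without treatment and collected after 24 h; H3K4me1, H3K4me2 and H3K27me3 were mapped in all 4 lines and KDM6A in the 2 control lines, with 1 library for each mark and line. Whether a line is a clone, whether 236L and 236R come from separate animals, and whether host cells were removed is not given in the sources used here. Since each mark has 1 library per line, the spread between the 3 other lines is the only error at hand, and an exact permutation test of 236L against them has 4 assignments and cannot give a p below 0.25.

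H3K4me1 is laid down at enhancers and at the flanks of promoters, and its pattern differs strongly between cell types. H3K4me2 marks promoters and the more active enhancers, whereas H3K27me3, the product of Polycomb repressive complex 2, covers silenced developmental genes. In macrophages the ETS factor PU.1 (gene Spi1), with RUNX, CEBP and AP-1 factors, opens enhancers that acquire H3K4me1. Most small cell lung cancers instead have a neuroendocrine programme.

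The promoters of 5 genes of the phagocyte and leukocyte lineages are given as examples at sequence level. They do not stand for the sites as a whole, of which 17.4% lay within 2.5 kb of a gene end. Sequences of 250 bases before a transcription start were taken from RefSeq (GRCm38.p6, which has the coordinates of mm10) and are written 5′ to 3′ in the direction of the gene. Each of these starts lay in a bin found in 236L only and with H3K4me2 in 236L only. The starts shown for Syk and Irf8 lie inside the gene, downstream of its first base (chr13:52582610 and chr8:120736358). Just after the first base of Syk itself, H3K4me2 peaks were present in all 4 lines. They ran from 0.069 to 1.12 kb in 159-1, 0.32 to 1.206 kb in 1014, -0.259 to 10.22 kb in 236L and 0.054 to 1.309 kb in 236R. Capitals mark matches, on either strand, to 5 short motifs: PU.1 (GAGGAAGT), ETS (CGGAAG), RUNX (TGTGGT), AP-1 (TGANTCA) and CEBP (TTGCNNAA). They were picked from 23 genes of the myeloid and leukocyte lists described below that had such a start. Most of the 23 held no match to any motif, and only Fcgr4 and C1qc held a PU.1 match. Fcgr4 and C1qc are shown because they held a PU.1 match, Cd68 because it held the most matches, Syk because its window held the most bins, and Irf8 as a transcription factor of the lineage.
Fcgr4, chr1:171018676-171018925, plus strand: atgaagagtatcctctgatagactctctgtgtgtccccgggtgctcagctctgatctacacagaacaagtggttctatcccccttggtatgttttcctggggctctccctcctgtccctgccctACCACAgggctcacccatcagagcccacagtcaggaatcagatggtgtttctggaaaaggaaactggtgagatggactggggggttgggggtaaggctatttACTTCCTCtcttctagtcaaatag
C1qc, chr4:136892915-136893164, minus strand: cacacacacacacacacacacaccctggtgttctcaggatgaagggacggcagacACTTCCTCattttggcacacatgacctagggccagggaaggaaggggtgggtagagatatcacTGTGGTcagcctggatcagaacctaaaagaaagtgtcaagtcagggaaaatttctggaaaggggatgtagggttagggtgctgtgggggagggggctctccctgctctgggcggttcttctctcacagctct
Cd68, chr11:69666171-69666420, minus strand: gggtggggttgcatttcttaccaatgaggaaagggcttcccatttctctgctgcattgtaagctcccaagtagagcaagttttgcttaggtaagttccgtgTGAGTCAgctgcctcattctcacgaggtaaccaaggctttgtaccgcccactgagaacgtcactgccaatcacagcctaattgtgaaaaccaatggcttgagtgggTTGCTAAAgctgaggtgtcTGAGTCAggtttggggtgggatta
Syk, chr13:52596632-52596881, plus strand: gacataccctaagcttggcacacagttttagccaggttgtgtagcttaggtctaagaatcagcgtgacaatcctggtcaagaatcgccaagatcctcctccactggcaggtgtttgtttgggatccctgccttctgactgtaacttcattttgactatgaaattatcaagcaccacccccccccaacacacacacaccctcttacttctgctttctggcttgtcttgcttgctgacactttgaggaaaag
Irf8, chr8:120738389-120738638, plus strand: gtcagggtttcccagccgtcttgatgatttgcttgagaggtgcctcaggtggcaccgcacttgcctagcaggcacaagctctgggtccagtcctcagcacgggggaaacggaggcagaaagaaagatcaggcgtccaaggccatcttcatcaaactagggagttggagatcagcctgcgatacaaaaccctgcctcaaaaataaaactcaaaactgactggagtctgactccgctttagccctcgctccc

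Fcgr4 encodes an activating IgG Fc receptor of phagocytes, and its start bin was covered by H3K4me1 to 100% in 236L and 0% in each other line. H3K4me2 covered the same bin to 100% in 236L and 0% elsewhere, and H3K27me3 covered it to 100% in 159-1, 100% in 1014, 0% in 236L and 27% in 236R. C1qc, a subunit of complement C1q made by macrophages, had 82.7% H3K4me2 in 236L and 0% in the 3 others. The lysosomal macrophage protein gene Cd68 sat near the limit of the rule, with 50.6% H3K4me1 cover in 236L, while H3K4me2 covered its start bin wholly in 236L and not at all elsewhere. At Syk, the kinase that relays Fc receptor signals, and at Irf8, a factor needed for monocyte development, none of the 5 motifs occurred in the printed window. Irf8 had H3K27me3 over 47.6% of the start bin in 159-1 and 100% in 1014, and 0% in both 236L and 236R. The other 3 start bins differed from this. C1qc had H3K27me3 in 236R only (57.6%), Syk in 1014 only (35.8%), and Cd68 in no line. The H3K27me3 list covered 13.6 Mb in 236L and 110.0 Mb in 1014, so these shares are not on an equal scale.

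Over all 31396 promoters of this table on chromosomes 1 to 19 (16457 of 20665 protein-coding genes matched), 2601 starts lay in bins found in 236L only, and 405 of these had H3K4me2 in 236L alone. The PU.1 motif was present in 2.47% of all promoters, 3.0% of those in 236L-only bins and 8.89% of those that also had H3K4me2 in 236L alone. The RUNX motif followed with 14.0%, 14.1% and 23.0%, CEBP with 9.66%, 9.38% and 15.1%, and AP-1 with 6.77%, 7.42% and 12.1%. For the ETS letters the shares were 13.7%, 13.0% and 6.42%. Starts in 236L-only bins as a whole therefore held each motif about as often as all promoters, and the shares differed in the small group chosen further by H3K4me2. These are counts of letters in a window, given as a description.

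The number of bins unique to 236L was above that of each other line: 12775 bins (11.5% of its H3K4me1 bins) were found in 159-1 only, 25363 (20.1%) in 1014 only and 19737 (19.2%) in 236R only. The bins found in both Kdm6a-mutant lines and neither control line numbered 7167. The H3K4me1 lists had similar covered lengths on these chromosomes, 118 Mb in 159-1, 134 Mb in 1014, 118 Mb in 236L and 108 Mb in 236R. In 54872 of the members (78.7%) the 3 other lists had no covered base at all. At the limit of the rule, 4465 members were covered 50 to 55% in 236L, against 4988 bins covered 45 to 50% that were left out.

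The 30833 peaks of 236L that lay at least 50% in such bins had a median fold over background of 4.11, by the authors' deposited values, and a median length of 1412 bp. The 39297 other H3K4me1 peaks of 236L had a median fold of 3.65 and a length of 683 bp; the rule needs 50% of a bin to be covered, so short peaks fall among these others by construction. Adjacent bins formed 37245 runs, of which 21655 were single bins, while runs of 5 bins or more held 20.9% of all members.

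Most sites lay away from gene ends: 17.4% were within 2.5 kb of either end of a protein-coding gene, against 36.9% of the 236L bins shared with another line and 6.99% of all bins. Gene bodies held 62.1% of them, against 40.0% of all bins; the gene table used gives gene ends only, so exons and introns were not told apart. Every autosome took part, with between 1.8% of its bins on chromosome 3 and 3.91% on chromosome 19.

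H3K4me2 was present at more of these sites in 236L than in any other line. It marked 7.17% of them in 159-1, 7.31% in 1014, 22.7% in 236L and 7.26% in 236R. The 3 other lines lay within a fraction of a point of each other (mean 7.25% ± 0.0745, SD, n = 3 lines), and 236L was 15.5 points above their mean. The exact permutation test over the 4 lines gave p = 0.25, the smallest it can give. The bins were chosen for H3K4me1 in 236L alone, and H3K4me2 tends to lie with H3K4me1. The choice thus favours 236L, and no conclusion is drawn from this test. Over all bins the share with H3K4me2 was 2.88% in 236L and between 2.81% and 3.35% in the others, so the sites were at 7.89 times the level of all bins in 236L and at 2.18 to 2.58 times in the others. The order was not particular to 236L. At bins found in 236R only, H3K4me2 marked 16.9% in 159-1, 19.3% in 1014, 16.8% in 236L and 31.1% in 236R. The control-line H3K4me2 lists are taken by their sample labels, whereas the names of the deposited lists exchange 159-1 and 1014; the comparison with 236L is the same either way.

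**Figure D1:**
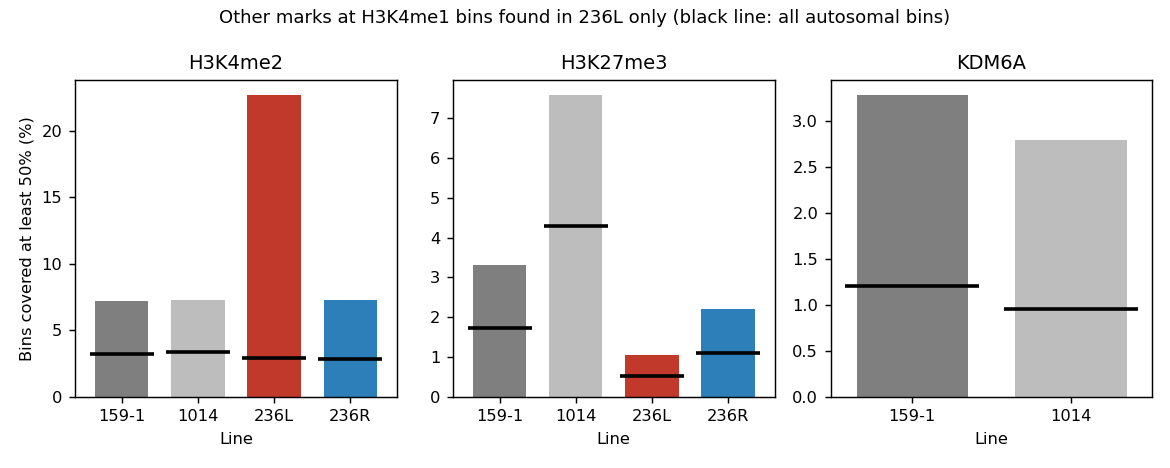
Share of the 69691 H3K4me1 bins found in 236L only that were covered at least 50% by H3K4me2, H3K27me3 or KDM6A peaks, in each line mapped; black lines give the share of all autosomal bins, and each bar is 1 library. H3K4me2 stands at 22.7% in 236L and at 7.17% to 7.31% in the other lines, and H3K27me3 is lowest in 236L, whose list is also the shortest.

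In 10506 of the members (15.1%) H3K4me2 was found in 236L and in no other line, a state that held for 0.809% of all bins; 52.8% of all bins in that state were members. A further 5.9% had H3K4me2 in all 4 lines, and 76.2% had it in none. Members farther than 2.5 kb from gene ends had H3K4me2 at 2.4%, 2.42%, 17.4% and 2.49% in 159-1, 1014, 236L and 236R. Within 2.5 kb of a gene end the shares were 29.8%, 30.5%, 47.6% and 29.9%. At both places 236L was the highest line and the other 3 lay close together.

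H3K27me3 was rare at these sites and lowest in 236L, but its lists differed in length. It marked 3.32% of the members in 159-1, 7.59% in 1014, 1.04% in 236L and 2.21% in 236R, a difference of -3.33 points between 236L and the mean of the others (4.37% ± 2.84, SD, n = 3 lines; exact permutation p = 0.5). The lists covered 45.3, 110.0, 13.6 and 29.4 Mb in the same order, and the sites were at 1.93, 1.77, 2.0 and 2.02 times the share of all bins. With each list cut to 13.6 Mb by its best q-values, the shares became 1.04%, 0.997%, 1.02% and 1.01%, and the difference 0.00301 points. H3K27me3 in both control lines and not in 236L was seen at 1630 members (2.34%), against 1.1% of all bins.

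KDM6A, mapped in the control lines alone, covered 3.29% of the members in 159-1 and 2.8% in 1014, against 1.21% and 0.961% of all bins. At the H3K4me1 bins that 236L shared with another line it covered 15.2% and 12.7%. KDM6A peaks were thus present at few of the sites in the control lines, more often than over the genome and less often than at shared H3K4me1 bins, in both libraries.

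The longest uninterrupted run of such bins, 37 bins at chr1:87625001-87662000, lay in Inpp5d, the gene of the leukocyte inositol phosphatase SHIP1. H3K4me2 covered 8.3 kb of it in 236L and nothing in the other lines, and H3K27me3 covered 10.5 kb in 159-1, 23.7 kb in 1014, none in 236L and 16.4 kb in 236R. The next runs lay in Snx10 (30 bins), a sorting nexin of the endosomes, Siglec1 (29 bins), the macrophage adhesion receptor CD169, and Myo9b (29 bins), an unconventional myosin. Hip1 (27), Mertk (26), a receptor for the uptake of dying cells, Cd44 (24), the hyaluronan receptor, Pik3r5 (23), a regulatory subunit of the PI3-kinase of myeloid cells, and Abcc5 (23), a transporter, held the others. A run of 25 bins at chr1:120512001-120537000 lay in no gene and mostly outside any gene window; its near end was 6.98 kb from Marco, a scavenger receptor gene of macrophages. In these 10 runs H3K4me2 covered 2.28 to 14.5 kb in 236L and at most 0.861 kb in any other line. H3K27me3 was at 0 in 236L in all of them, but the 236L list marked only 0.519% of all bins. In most of these runs 236R was at 0 too, and in those of Myo9b and Abcc5 every line was.

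Sites were then counted in the window of each of 20665 autosomal protein-coding genes, which is the gene with 10 kb on each side. At least 10 sites were found at 1793 genes (8.68%), and 7847 genes had none. Among the 1793 genes, 835 (46.6%) had more H3K4me2 cover in 236L than in each other line by at least 2 kb, a call made for 8.57% of all genes and for 0.599% of genes without a site. Where sites filled at least 30% of the window, the call was made for 359 of 504 genes (71.2%). For genes with at least 10 bins of 236R only, H3K4me2 was highest in 236R at 24 of 121 (19.8%), against 1.03% of all genes. By the sample labels the same count was 60 of 366 (16.4%, against 2.4%) for 1014 and 4 of 100 (4.0%, against 3.13%) for 159-1. The windows of the 1793 genes were longer than those of all genes (median 83.4 kb against 37.5 kb). H3K4me2 lower in 236L than in each other line by 2 kb was called for 78 of the 1793 genes (4.35%), against 5.35% of all genes.

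The 25 genes with most sites, counted once where windows overlap, were mostly long (median window 324.0 kb). Lpp, a LIM-domain protein of focal adhesions, held 111 sites, followed by Lrmda (100), Pakap (96), the sphingomyelin synthase gene Sgms1 (89), the Arf GTPase activator gene Asap1 (89), Frmd4a (89) and the RNA-binding protein gene Rbm47 (83). Rbm47 had the densest sites of the 25 leading genes, over 53.4% of its window, and H3K4me2 covered 5.34 kb in 159-1, 5.61 kb in 1014, 30.0 kb in 236L and 5.2 kb in 236R. Tcf7l2, the Wnt pathway factor TCF4, had 65 sites and 3.23, 2.34, 29.0 and 5.33 kb of H3K4me2 in the same order. By the 2 kb call 18 of these 25 genes had H3K4me2 highest in 236L, against 8.57% of all genes. The median window of all genes was 37.5 kb, and a fixed margin of 2 kb is a smaller part of a long window. Rbfox1, a neuronal splicing factor, had H3K4me2 lowest in 236L (12.7, 23.7, 8.66 and 11.5 kb). Of the 25, only Lyn, a Src-family kinase of blood cells, with 70 sites, and Runx1, a blood cell transcription factor, with 66, were on a lineage list.

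Ranked instead by the share of the window, among genes with at least 10 sites, the leading genes were shorter (median window 32.8 kb) and included many receptor genes of phagocytes. The 15 leading genes included Cd300a (79.3% of the window), an inhibitory receptor of myeloid cells; the chemokine gene Ccl6 (75.4%); Siglec1 (74.4%); Tnfrsf14 (73.0%); C5ar1 (70.1%), the receptor for complement C5a; Cxcr1 (69.8%) and Fpr1 (69.2%), receptors for chemoattractants; and Cd300lf (68.9%). After them came Apoc2 (68.3%), Syk (67.3%), Csf1r (65.8%), the receptor that macrophages need for survival, Sirpa (65.4%), Fcgr2b (64.8%) and Ifnar2 (64.4%). In 13 of the 15 genes H3K4me2 was highest in 236L by the same call, made for 8.57% of all genes. Cxcr1 (0.346, 0, 1.18 and 0 kb) and Apoc2 (5.64, 5.15, 5.74 and 4.77 kb) were the exceptions. At Fpr1 H3K4me2 covered 20.1 kb in 236L and nothing in the 3 others, and at Ccl6 12.9 kb and nothing.

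Syk, at chr13:52582610-52648792, shows the arrangement over a whole gene. H3K4me1 covered 0.514 kb of its 86.2 kb window in 159-1, none in 1014, 59.0 kb in 236L and 2.27 kb in 236R, and the window held 58 sites. H3K4me2 covered 1.27, 1.06, 32.7 and 1.48 kb, again with 236L far from the other lines, which overlapped one another. H3K27me3 covered 35.8, 16.0, 0.629 and 27.7 kb, and 7.04, 4.51, 0.629 and 7.57 kb with lists of equal length. The 3 lines with little or no H3K4me1 at this gene thus had more H3K27me3 there than 236L on either scale.

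**Figure D2:**
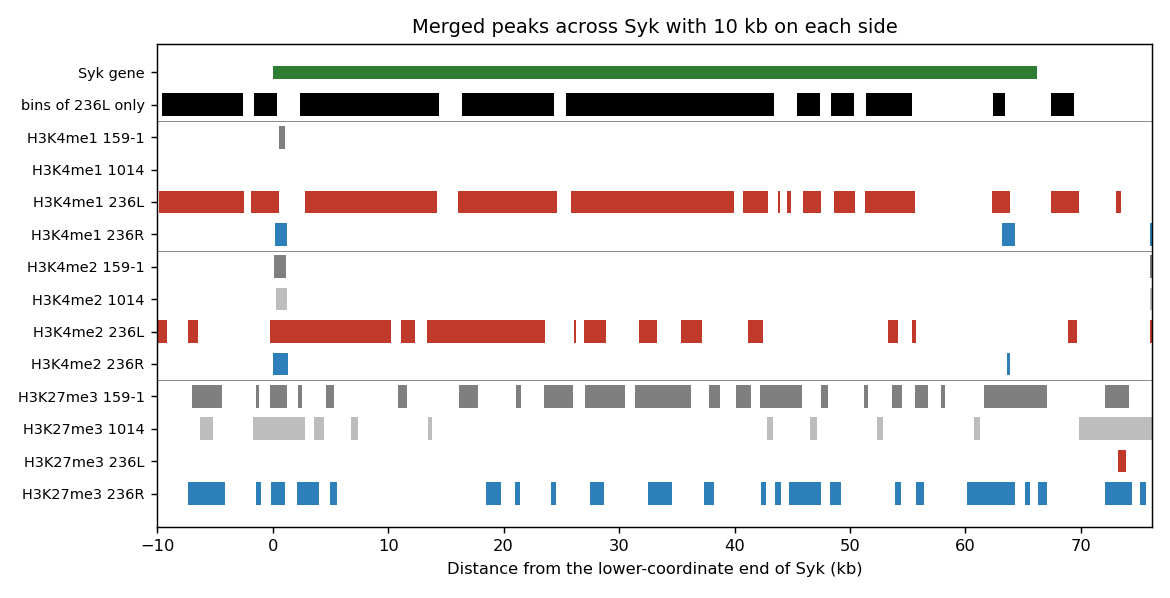
Merged H3K4me1, H3K4me2 and H3K27me3 peaks of the 4 lines across Syk and 10 kb on each side, with the H3K4me1 bins found in 236L only in black; the horizontal axis is the distance in kb from the lower-coordinate end of the gene. Red 236L peaks of H3K4me1 and H3K4me2 fill much of the gene, where the other lines have short peaks near its ends, and H3K27me3 peaks are spread along the gene in the other 3 lines.

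Lineage was read from 21 lists of genes. On 4 lists of myeloid cells and leukocytes, 52 of 92 autosomal genes had at least 10 sites and 88 had at least 1: 14 of 25 macrophage and monocyte genes, 8 of 18 myeloid transcription factors, 15 of 22 pan-leukocyte genes and 15 of 27 genes of phagocyte receptors and innate signalling. On the lymphocyte lists the number was 1 of 21 T and NK cell genes (Cd2, with 11 sites) and 1 of 15 B cell genes (Blnk, with 18). Dendritic cell and MHC class II genes stood at 3 of 16 and neutrophil genes at 2 of 15, and no mast cell, liver or muscle gene was among them. The background is 8.68% of all genes. Bins found only in 159-1, 1014 or 236R reached 10 in 0, 1 and 0 genes of the 4 myeloid and leukocyte lists. Over all 20665 genes they reached 10 in only 100, 366 and 121. With so few such genes, the counts for these 3 lines cannot show whether their own bins avoid the lists.

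**Figure D3:**
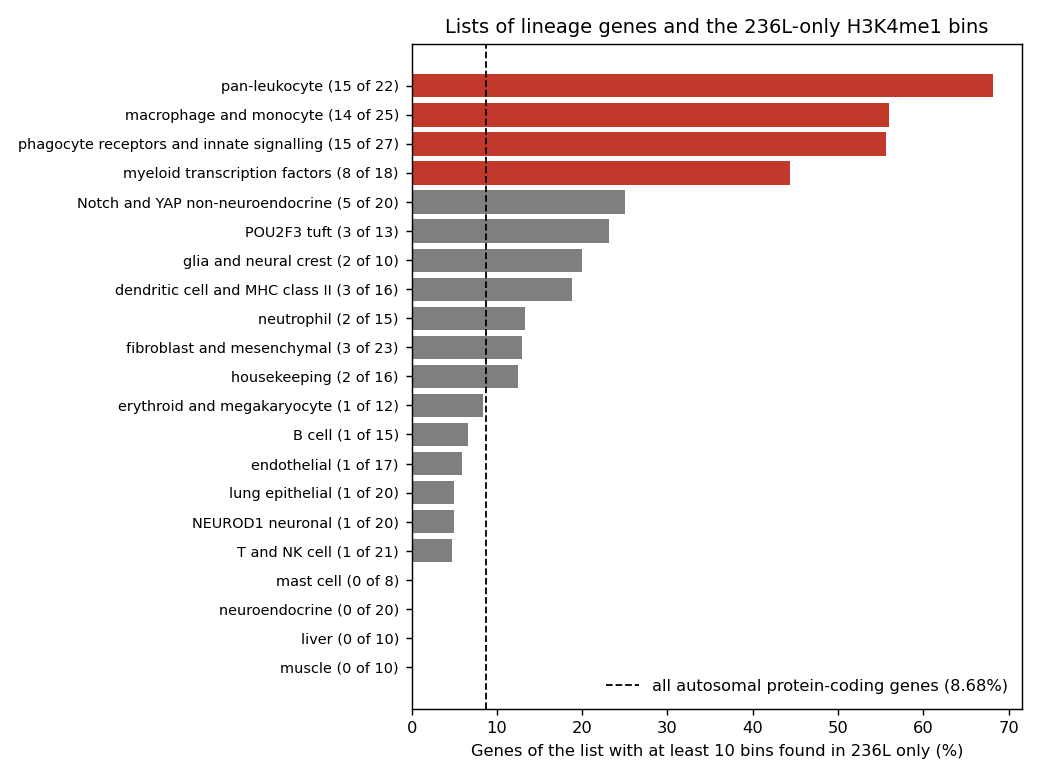
Share of the genes of each of 21 lineage lists that had at least 10 H3K4me1 bins found in 236L only, with the number of genes in brackets; the dashed line is the 8.68% of all autosomal protein-coding genes. The pan-leukocyte, macrophage, phagocyte and myeloid transcription factor lists stand between 44.4% and 68.2%, and no neuroendocrine gene is counted.

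Transcription factors of the myeloid lineage carried both the sites and H3K4me2. Spi1, the gene of PU.1, at chr2:91082374-91115759, had 31 sites over 58.1% of its window, and H3K4me2 covered 4.61 kb in 159-1, 3.83 kb in 1014, 21.8 kb in 236L and 3.55 kb in 236R. Irf8 had 2.34, 2.19, 11.2 and 2.12 kb, Tfec, a relative of MITF found in macrophages, had 0, 0, 10.1 and 0 kb, and Mitf itself had 3.09, 4.24, 19.4 and 4.77 kb. In each of these 4 genes 236L lay above the other lines, which lay close together. Nr1h3, the oxysterol receptor LXRα, and Ikzf1, the lymphoid and myeloid factor Ikaros, showed the same order, with 16.9 and 9.42 kb in 236L and at most 8.49 and 4.01 kb elsewhere. Not every factor did: Cebpa, a granulocyte and monocyte factor, had no site and more H3K4me2 in the control lines (12.9 and 11.4 kb) than in 236L (6.46 kb) and 236R (6.27 kb), and at Fli1, with 14 sites, 236L (14.1 kb) lay among the others (11.4 to 16.5 kb).

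Surface receptors and markers of macrophages followed. At Mertk H3K4me2 covered 1.97, 2.65, 16.9 and 2.51 kb in 159-1, 1014, 236L and 236R, at Csf1r 1.2, 1.21, 7.47 and 0.719 kb, and at Adgre1, the gene of the F4/80 antigen, 0, 0, 4.97 and 0 kb. Trem2, a lipid receptor of macrophages and microglia, had 4.81 kb in 236L and none elsewhere. Genes with few sites could differ too: Lyz2 (lysozyme) had 5 sites and 3.81, 4.65, 12.8 and 0 kb, and C1qa, C1qb and C1qc, which lie side by side and share part of their windows, had 3, 6 and 6. The monocyte chemokine receptor gene Ccr2 had no site and no H3K4me2 in any line, Aif1 had 1 site, and Cd163, the haemoglobin scavenger receptor, had 1. The list of macrophage genes was therefore not marked as a whole.

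Pan-leukocyte genes showed some of the widest gaps between 236L and the other lines. Lcp1, an actin-bundling protein of leukocytes, had 1.33, 1.49, 29.3 and 1.81 kb of H3K4me2, Fyb, a T cell and myeloid adaptor, 0.209, 0.32, 22.2 and 2.21 kb, and Itgb2, the common chain of the leukocyte integrins, 1.66, 0.782, 18.9 and 3.14 kb. Ptprc, which encodes CD45, had 16.1 kb in 236L, 0.784 kb in 236R and none in 159-1 or 1014. Ptpn6 was an exception, with 20.0, 19.4, 20.8 and 16.9 kb. Among the phagocyte genes Tlr2, a receptor for bacterial lipoproteins, had 1.25, 1.44, 11.0 and 1.64 kb, and Cyba, the p22phox subunit of the phagocyte oxidase, 2.87, 2.88, 9.71 and 1.58 kb. The C-type lectin genes Clec4d, Clec4e and Clec4n, close neighbours on chromosome 6, had 11.1, 7.01 and 7.68 kb in 236L and none in any other line.

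Over the 4 lists, H3K4me2 was highest in 236L by at least 2 kb in 72 of 92 genes (78.3%) and lowest by that margin in none, against 8.57% and 5.35% of all genes. In 85 of the 92 genes 236L had the longest H3K4me2 cover of the 4 lines at any margin (28.0% of all genes), and in 12 of them the other lines had no H3K4me2 at all (1.85% of all genes). The median share of the window with H3K4me2 was 18.6% in 236L against 2.02% to 4.29% in the others for macrophage genes, and 12.3% against 1.33% to 1.92% for pan-leukocyte genes. Over all genes the medians were 6.95%, 7.06%, 6.83% and 6.4%. These lists and the sites were chosen with results of these data known, so the counts describe the 4 libraries.

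**Figure D4:**
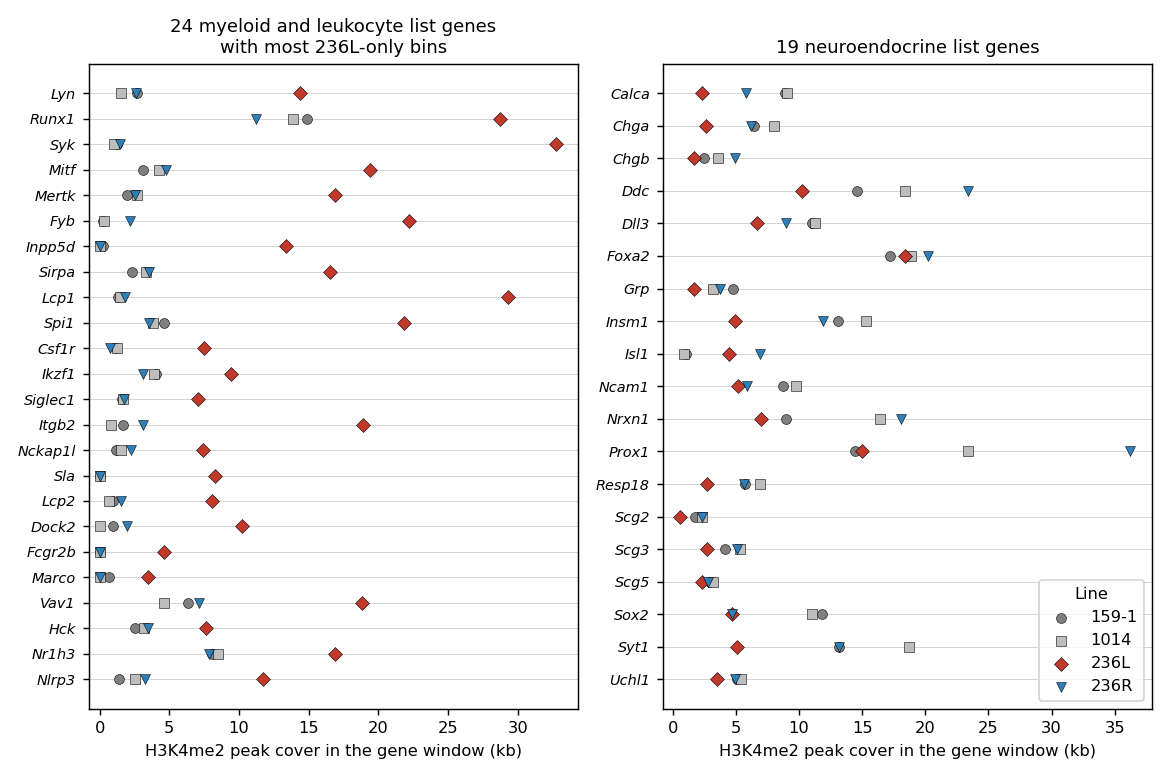
H3K4me2 peak cover in kb (horizontal axis) in the gene with 10 kb on each side, for the 24 myeloid and leukocyte list genes with most 236L-only H3K4me1 bins (left) and 19 of the 20 autosomal neuroendocrine list genes (right); each symbol is 1 line, with 1 library each. Red diamonds for 236L lie to the right of the other lines in all 24 genes on the left and at or near the left end in most genes on the right.

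Of the defining markers of the labelled tumour type, the 20 autosomal neuroendocrine genes, none had 10 sites and none had H3K4me2 highest in 236L by 2 kb. Over all genes the shares were 8.68% and 8.57%, so none among 20 genes is not far from the background. The rule also leaves out bins with H3K4me1 in another line. In the other lines H3K4me1 covered a median 11.6% to 17.1% of these windows. In 9 of the 20 it was lowest in 236L by that margin, against 5.35% of all genes, and 11 passed neither call. Insm1, a neuroendocrine transcription factor, had H3K4me1 over 9.88, 8.64, 5.12 and 11.2 kb and H3K4me2 over 13.1, 15.3, 4.92 and 11.9 kb in 159-1, 1014, 236L and 236R. H3K4me2 at Chga, which encodes chromogranin A, was 6.44, 8.0, 2.62 and 6.2 kb. Both genes were lowest in 236L and kept some H3K4me2 there. Among the genes that passed neither call, Foxa2 had 17.2, 18.9, 18.4 and 20.2 kb, Prox1 14.4, 23.4, 15.0 and 36.2 kb, and Isl1, where 236L lay above both control lines, 1.03, 0.866, 4.43 and 6.93 kb. At Sox2 both mutant lines were low (11.8, 11.0, 4.67 and 4.73 kb).

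H3K27me3 was at 0 in 236L in 6 of the 20 neuroendocrine genes, although the list of this line was the shortest. It covered 6.54 kb at Insm1, 7.93 kb at Foxa2 and 3.42 kb at Dll3, a Notch ligand of these tumours, and nothing at these genes in the 3 other lines. In 12 of the 20 genes H3K27me3 was present in 236L alone, against 6.75% of all genes, and in 7 of 20 it was highest there by at least 2 kb, a call made for 3.74% of all genes. At Sox2, a factor of neural and airway progenitors, 236R had 8.26 kb, 236L 7.48 kb and the control lines none. With lists of equal length the values at Insm1 were 0, 0, 6.54 and 0 kb. KDM6A was at 0 in both control lines for 2 of 20 neuroendocrine genes and 32 of 92 myeloid and leukocyte genes, against 26.4% of all genes.

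**Figure D5:**
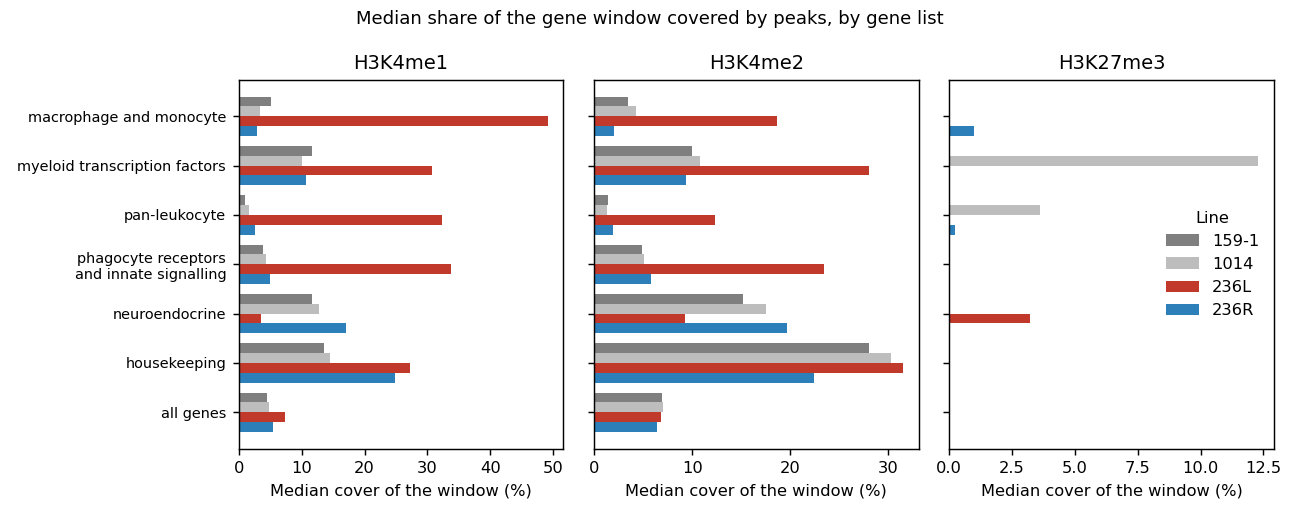
Median share of the gene window covered by H3K4me1, H3K4me2 and H3K27me3 peaks in each line (bars, 1 library each), for 6 gene lists and all autosomal protein-coding genes. The 4 myeloid and leukocyte lists have their longest bars in 236L for H3K4me1 and H3K4me2, the neuroendocrine list has its shortest there, and the H3K27me3 lists differ in total length from 13.6 Mb in 236L to 110.0 Mb in 1014.

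In bulk chromatin of this kind a share of cells of another type and a changed state of all cells cannot be told apart. Of the 92 genes of the 4 myeloid and leukocyte lists, 52 had at least 10 sites and 72 had H3K4me2 highest in 236L by at least 2 kb. On the lymphocyte lists 2 of 36 genes (5.56%) had each, near the 8.68% and 8.57% of all genes. Of the 16 dendritic cell and MHC class II genes, 3 had at least 10 sites and 8 (50.0%) had H3K4me2 highest in 236L, against 8.57% of all genes. The median share of the window with H3K4me2 at neuroendocrine genes was 9.28% in 236L and 15.2% to 19.7% in the others. The part that macrophages or other host cells in the 236L culture, or a change in the tumour cells, have in the sites was not tested. 236R carries a guide RNA against the same gene, and H3K4me2 marked 7.26% of the sites there, against 7.17% and 7.31% in the control lines. The sites were chosen for lacking H3K4me1 in these 3 lines, and H3K4me2 tends to lie with H3K4me1. In 236R it marked 46.3% of the H3K4me1 bins that 236L shared with another line and 2.81% of all bins. The low shares are thus in part set by the choice, and no conclusion on the guide RNA is drawn from them.

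H3K27me3 at the genes with most sites differed by gene and followed list length in part. By the 2 kb call it was lowest in 236L at 171 of the 1793 genes (9.54%), against 5.88% of all genes, and at 23 of the 92 myeloid and leukocyte genes. With lists of equal length the call was made for 28 of 1710 genes (1.64%) and 0.91% of all genes, and with peaks of a q of at most 0.001 for 4 of 1624 (0.246%) and 0.256%. Without 236R it was made for 284 of the 1793 genes and 10.7% of all genes. Of the 37 genes of the 4 lists with H3K27me3 in both control lines, 34 had none in 236L, whose list is the shortest; over all genes it was 2154 of 4205 (51.2%).

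Single genes had broad H3K27me3 in the control lines. Creb5, a CREB family transcription factor with 78 sites, had 127, 267, 0 and 9.82 kb in 159-1, 1014, 236L and 236R, and 18.2, 18.8, 0 and 6.39 kb with lists of equal length. Cacna1d, an L-type calcium channel subunit with 67 sites, had 121, 227, 0 and 4.79 kb, and 16.9, 18.1, 0 and 0.657 kb at equal length. In both genes the control lines stood above both mutant lines, and H3K4me2 was highest in 236L (21.1 kb at Creb5 and 14.4 kb at Cacna1d, against at most 11.2 and 10.2 kb). Inpp5d differed from them in that 236R, with 43.0 kb, lay with the control lines (39.3 and 64.7 kb) and 236L had none, but at equal length the values were 10.2, 0, 0 and 8.67 kb, with 1014 at 0 like 236L. Spi1 had 10.5, 11.0, 0 and 14.3 kb, but 0, 0, 0 and 5.32 kb at equal length.

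Most of the 1793 genes with at least 10 sites were on none of the 4 myeloid and leukocyte lists, which held 52 of them. On the list of Notch and YAP genes 5 of 20 had at least 10 sites, against 8.68% of all genes: Cd44, the YAP paralogue TAZ (Wwtr1), Notch2, the receptor kinase Axl and Anxa2. Cd44 had 0.994, 0, 22.9 and 1.76 kb of H3K4me2, and Axl 6.26, 5.83, 15.4 and 8.61 kb, with 236L the highest line at each. Over the list, H3K4me2 was highest in 236L by 2 kb in 7 of 20 genes (8.57% of all genes) and lowest in 1. That gene was Tead1, a DNA-binding partner of YAP, with 33.3, 43.1, 16.3 and 24.1 kb of H3K4me2 and 121, 129, 4.57 and 118 kb of H3K4me1. Yap1 itself had no site, and its H3K4me2 (2.26, 3.26, 2.72 and 2.23 kb) passed neither call. Zeb2, a mesenchymal transcription factor that macrophages also express, had 51 sites, yet its H3K4me2 covered 4.92, 8.63, 28.9 and 26.5 kb and so was long in both mutant lines. There 236L and 236R lay close to each other, and their order turned with several settings, for example to -0.378 kb within the gene body.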

How the data were processed

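Peak lists of 14 ChIP libraries were used, of 24 samples; the 10 input libraries were not analysed here. The submitters' processing notes name Bowtie2 2.4.2, MACS3 3.0.0a7 and the build mm10; its peak calling settings are not stated there. For each peak the authors deposited a fold enrichment (a linear ratio) and −log10 p- and q-values, used here only to describe, rank or filter peaks within a list. No read counts were used, so the depth is unknown and a shorter list may come from a shallower library. H3K4me1 has input libraries of its own per the labels, so it was compared with the other marks only by position.

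Peaks were merged within a library (Python 3.11.15, numpy 2.4.6, pandas 2.3.3) and scored over 1 kb bins (marked at 50% cover) and over windows of 20665 autosomal protein-coding genes of RefSeq GRCm38.p6 with 10 kb on each side. A gene was called where 236L lay at least 2 kb above or below each other line. The 4 lines were compared with exact permutation tests, 236L against the 3 others. The bin and gene code was tested on simulated lists, where all 2000 planted bins were recovered.

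Genes are named by rule: the 25 with most sites, the 15 with the highest share of the window among genes with at least 10 sites, genes of 21 lineage lists (360 genes) with at least 10 sites and those at the 10 longest runs; other list genes, given as exceptions or for the markers of the label, were chosen after their values were seen. The sites and lists were chosen with earlier results of these data known. Reads that match several near-identical genes, such as those of Fc receptors, may have been placed in either. Some genes and motifs are not reported here. Alternatives are given in the closing section.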

Additional observations from a re-analysis of the deposited data

How the results depend on the processing

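The number of sites stayed between 49234 and 85791 over 9 alternatives, and the H3K4me2 difference between 236L and the other lines between 11.1 and 18.3 points over 13. The H3K27me3 difference turned to 0.00301 points with lists of equal covered length and was between -4.56 and -0.886 otherwise. Mean KDM6A cover (3.04%) moved to 3.59% with a bin cover of 25%, 1.71% with 90%, 2.54% with a q of at most 0.001 and 1.47% where the other lists had to be empty, and leaving out 1 H3K4me1 list gave 3.05% to 4.03%, the highest without 236R. Genes with H3K4me2 highest in 236L (835) numbered 504 with the gene body alone, 2349 with 50 kb on each side, 429 with a separation of 5 kb and 1388 with at least 5 sites; their share was 23.9% to 56.4%, and that of all genes 2.83% to 14.9%. Genes with H3K27me3 lowest (171) numbered 76, 1003, 84 and 325 under the same settings, 4 with the stricter q, 28 at equal length and 175 to 284 when 1 H3K27me3 list or 1 H3K4me1 list was left out. Their share was 0.246% to 16.3% over the alternatives, and that of all genes 0.256% to 12.9%. Of the 92 myeloid and leukocyte genes, 32 had 10 sites within the gene body and 43 to 74 under the other settings. Over these settings the share of all genes with 10 sites moved too, from 5.27% to 29.7%. Leaving out a list of H3K4me2 or H3K27me3 was chosen after seeing the data.

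Of 116 named genes, H3K4me2 in 236L fell below another line at Aff1 (-1.08 kb) and Zeb2 (-0.176 kb) with the stricter q, at Zeb2 with equal lengths (-0.349 kb) and the gene body alone (-0.378 kb), and at Tnfrsf14 (-0.307 kb), Pik3cd (-3.08 kb), Cd86 (-5.95 kb) and Alox5 (-0.949 kb) with 50 kb on each side. No paired analysis was possible because each line is 1 library per mark and replicate numbers only name lines. Depth is unknown, so sites missing from a list may have been missed there.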

Other observations

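Chromosome X lay outside the rule. There 1240 of the 1531 H3K4me1 bins of 236L (81.0%) were found in no other line. Cybb, which encodes the gp91phox subunit of the phagocyte oxidase, had 14 such bins, and H3K4me2 covered none of its window in 159-1, 0.465 kb in 1014, 13.6 kb in 236L and 0.226 kb in 236R. The toll-like receptor genes Tlr13 (18 bins; 0.654, 0.89, 14.3 and 1.18 kb of H3K4me2) and Tlr7 (11 bins; 0.776, 1.03, 11.1 and 1.26 kb), sensors of microbial RNA, showed the same order. Btk, a kinase of B cells and myeloid cells, had 7 bins and 4.88, 5.22, 9.28 and 4.98 kb, while the leukotriene receptor gene Cysltr1 had none. At Kdm6a itself H3K4me2 covered 3.1, 4.38, 6.01 and 4.66 kb, so peaks remained over the targeted gene in both mutant lines. A guide RNA cut leaves most of the gene in place, so this does not check the labels.

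By the sample labels, bins found in 1 control line only did not carry H3K4me2 most often in that line. At bins found in 159-1 only the share was 7.02% in the library labelled 159-1 and 12.3% in the library labelled 1014. At bins found in 1014 only it was 5.33% in the library labelled 1014 and 7.03% in that labelled 159-1. The names of the deposited H3K4me2 lists exchange these 2 lines, and by those names each set had H3K4me2 most often in its own line. Which assignment holds was not tested, so the H3K4me2 values given for 159-1 and 1014 may be exchanged.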
